A study of Bos taurus with 6 samples.

Results

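The calpain and cathepsin proteases that are linked to beef tenderness were examined in the longissimus thoracis (LT) muscle of Korean cattle (Hanwoo) steers, by their messenger RNA. The group holds 10 genes, chosen by name: the calpains CAPN1, CAPN2 and CAPN3, the small subunit CAPNS1, the calpain inhibitor calpastatin (CAST), and the cathepsins CTSB, CTSD, CTSL, CTSH and CTSK. All 10 symbols were found among the 22839 different gene symbols of the deposited counts, each in 1 row. The study compared 3 steers with a high number of fine marbling particles (NFMP), a count of the small fat flecks on a ribeye photograph, with 3 steers with a low NFMP. In the high-NFMP group, steers 3-8, 10-8 and 10-9 were aged 32.5, 33.8 and 34.5 months. In the low-NFMP group, steers 3-1, 3-3 and 10-16 were aged 37.8, 33.7 and 35.4 months. All were raised and fed in the conventional way with no treatment, and each gave 1 library. The groups were formed on the image measurement and not on tenderness, which was not analysed here.

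Calpains are calcium-dependent cysteine proteases of the cytosol. CAPN1 (the large subunit of µ-calpain) and CAPN2 (that of m-calpain) each pair with the regulatory subunit encoded by CAPNS1, and calpastatin binds and blocks the activated enzymes. CAPN3 is the muscle-specific calpain, which is bound to titin in the sarcomere and is not inhibited by calpastatin. After slaughter, µ-calpain cuts proteins such as titin, nebulin, desmin and troponin T, so the balance between calpain and calpastatin is a classic measure in meat science. The cathepsins work in the lysosome, where CTSB, CTSL, CTSH and CTSK are cysteine proteases and CTSD is an aspartic protease. CTSK is best known from osteoclasts and fibroblasts, where it degrades collagen.

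The libraries were made with a 3′ mRNA kit, which primes on the poly(A) tail, so that most reads come from the 3′ end of a transcript. Levels are given as CPM, the reads of a gene per 1000000 reads of the normalized library size, without division by transcript length, because transcript lengths were not used here. The order of genes is therefore an order of reads, and the comparison of the groups does not depend on length. The totals were between 16283873 and 17192750 counts, and 1 CPM was 15.1 to 18.2 reads. All 10 defining skeletal muscle genes were counted in every library, and their summed level was 99362 to 118990 CPM in the high-NFMP and 100890 to 120810 CPM in the low-NFMP steers. Nothing in the labels says how the steers were related, so p-values measure the spread between these 6 steers.

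CAPN3 was the most abundant protease transcript of the group and CAPN1 was among the rarest. CAPN3 had a mean of 231.8 ± 16.3 CPM (SD over all 6 steers), which placed it above 97.0% of the 15039 tested genes. CAST (124.1 ± 11.4 CPM), CAPNS1 (110.8 ± 22.2 CPM) and CTSB (107.4 ± 19.7 CPM) followed, all between the percentiles 92.9 and 93.9. CTSD stood at 51.7 ± 10.3 CPM. CTSK (26.6 ± 4.15 CPM) and CAPN2 (25.4 ± 4.51 CPM) formed the next level. CTSH (5.82 ± 1.10 CPM) and CAPN1 (4.68 ± 1.48 CPM) lay below the median tested gene, and the row named CTSL had the fewest reads, at 0.323 CPM. CAPN1 was thus counted less often than CAPN2 in every steer.

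In this order, 5 of the 9 steps between neighbours were seen in 6 of 6 steers, namely CAPN3 over CAST, CTSB over CTSD, CTSD over CTSK, CAPN2 over CTSH and CAPN1 over CTSL. Each had a p of 0.0312 by the exact sign-flip permutation test (two-sided, n = 6), the smallest that 6 steers allow, and 0.0562 after adjustment over the 9 steps. The test was not planned, and the neighbours were set by the means of the same reads, so its p-values cannot support the order. The other 4 steps held in only 4 of 6 steers. These were CAST and CAPNS1 (exact permutation p = 0.25), CAPNS1 and CTSB (0.594), CTSK and CAPN2 (0.469) and CTSH and CAPN1 (0.188), neighbours with close means. No step had an adjusted p below 0.05, so the test does not set these 4 apart from the other 5.

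**Figure D1:**
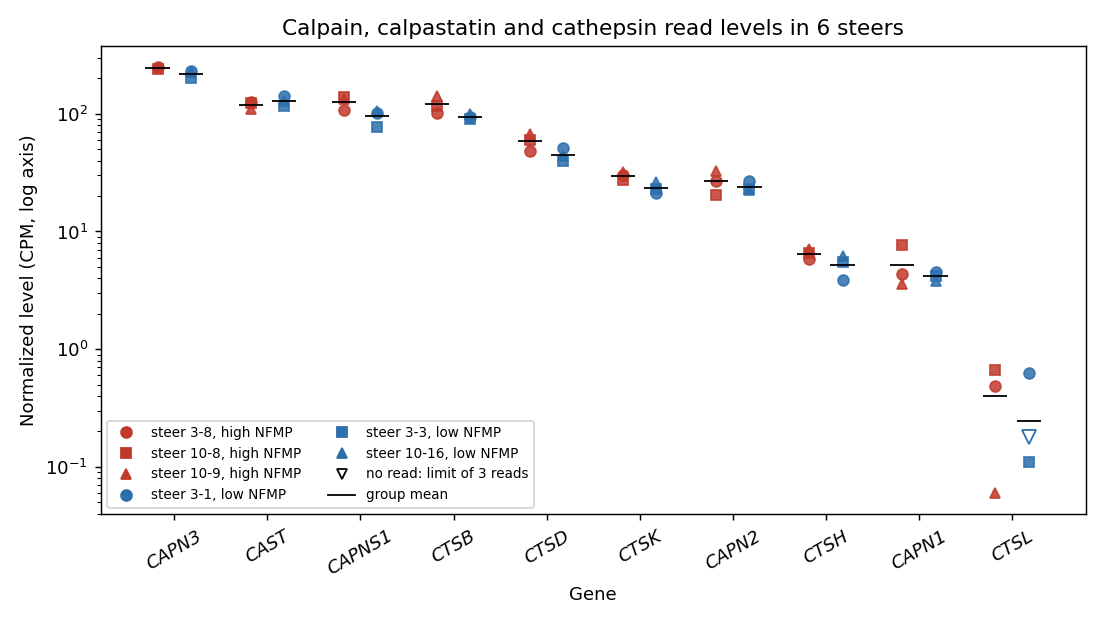
Read level of the 10 genes in each of the 6 steers (CPM, log axis), with high-NFMP steers in red and low-NFMP steers in blue and a line at each group mean. CAPN3 sits above 200 CPM in every steer, CAPN1 below 8 CPM, and CTSL below 1 CPM with no read in steer 10-16.

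Neither large subunit of the classical calpains passed the test. CAPN1 had 72, 115 and 60 reads among the high-NFMP steers (3-8, 10-8 and 10-9), against 80, 76 and 63 reads among the low-NFMP steers (3-1, 3-3 and 10-16). Steer 10-8 stood alone at 7.61 CPM, and the other 5 steers lay between 3.58 and 4.56 CPM with the groups overlapping. The means were 5.18 ± 2.14 CPM (SD, n = 3) and 4.18 ± 0.39 CPM (SD, n = 3), a log2 fold change of high minus low of 0.31 with a 95% interval from -0.39 to 1.01 (adjusted p = 0.757 from the quasi-likelihood test of edgeR). Without steer 10-8 the log2 fold change was -0.048. At 60 reads the counting error alone is 12.9%, the largest among the 5 tested members of the calpain system. In this bulk tissue, fewer cells of a type and less RNA per cell cannot be told apart.

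CAPN2 had 445, 306 and 550 reads among the high-NFMP steers, against 473, 415 and 373 reads among the low-NFMP steers. Its highest level (32.8 CPM, steer 10-9) and its lowest (20.2 CPM, steer 10-8) both belonged to the high-NFMP group. The log2 fold change was 0.15 (95% interval -0.31 to 0.60, adjusted p = 0.825 by edgeR), and it was -0.019 without steer 10-9. CAPN1 and CAPN2 ran in opposite order within the high-NFMP group: steer 10-8 had the highest CAPN1 and the lowest CAPN2 level of the 6 steers, and steer 10-9 had the lowest CAPN1 and the highest CAPN2 level.

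CAPN3, the calpain of the sarcomere, varied least of all members. CAPN3 had 4126, 3600 and 4081 reads among the high-NFMP steers, against 4053, 3687 and 3758 reads among the low-NFMP steers, or 243.6 ± 5.38 CPM against 219.9 ± 14.8 CPM (SD, n = 3 each). After TMM normalization the groups did not overlap, with a log2 fold change of 0.15 (95% interval -0.22 to 0.51, adjusted p = 0.779 by edgeR). The groups overlapped with library totals alone and after quantile normalization.

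CAPNS1, the small subunit shared by µ- and m-calpain, had the largest fold change of the 9 tested members with all 6 steers and no added term. CTSD was larger with age as a term, CTSK and CTSD with the label number as a term, and another member with any of 4 steers left out (10-8, 10-9, 3-1 or 3-3). CAPNS1 had 1779, 2094 and 2230 reads among the high-NFMP steers, against 1779, 1413 and 1774 reads among the low-NFMP steers, so steers 3-8 and 3-1 had the same number of reads. The means were 126.3 ± 16.7 CPM (SD, n = 3) in the high-NFMP and 95.3 ± 15.3 CPM (SD, n = 3) in the low-NFMP group. The groups were separated by the narrow gap between 107.3 CPM in steer 3-8 and 106.6 CPM in steer 10-16, and they overlapped with RLE size factors, with DESeq2 and with no filter. The log2 fold change was 0.41 (standard error 0.19, 95% interval 0.00 to 0.81), with an unadjusted p of 0.0496 and an adjusted p of 0.435 by edgeR. The unadjusted p was 0.0505 with RLE size factors, 0.0526 with DESeq2, 0.0773 with library totals alone and 0.117 once the leading label number (3 or 10) was a term (log2 fold change 0.31), and it was above 0.05 without steer 10-8, 10-9, 3-1 or 3-3.

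Calpastatin was the only tested member with a negative fold change. CAST had 2072, 1876 and 1824 reads among the high-NFMP steers, against 2487, 2096 and 2157 reads among the low-NFMP steers, or 119.3 ± 9.05 CPM against 128.9 ± 13.1 CPM (SD, n = 3 each). Steer 3-1 was highest at 142 CPM and steer 10-9 lowest at 109 CPM, and the groups overlapped because steer 3-3 lay at 115 CPM. The log2 fold change was -0.11 (95% interval -0.49 to 0.26, adjusted p = 0.839 by edgeR). It lay between -0.19 (without steer 3-3) and -0.035 (without steer 10-9) with a steer left out, was -0.041 without steer 3-1, and was -0.024 with age as a term.

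**Figure D2:**
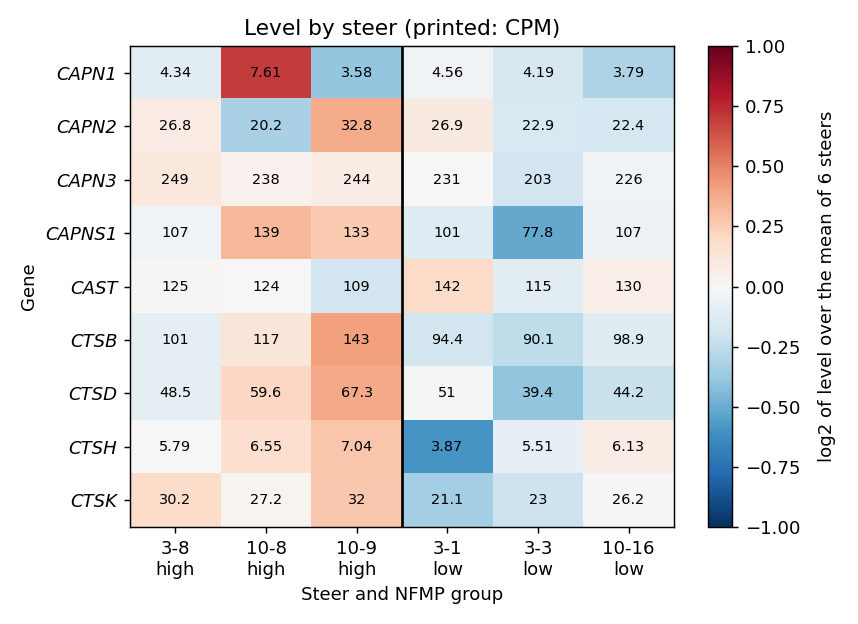
Level of the 9 tested members in each steer, with the CPM value printed and the colour giving the log2 of that level over the mean of the 6 steers. Steer 10-9 holds the highest level of CAPN2, CTSB, CTSD, CTSH and CTSK, whereas its CAPN1 and CAST levels are the lowest.

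The ratio of calpain to calpastatin reads within a steer needs no scaling between libraries. CAPNS1 to CAST was 0.859, 1.12 and 1.22 among the high-NFMP steers (3-8, 10-8 and 10-9), against 0.715, 0.674 and 0.822 among the low-NFMP steers (3-1, 3-3 and 10-16). The ratio was higher in every high-NFMP steer, by 1.43-fold on the geometric mean. CAPN3 to CAST was 1.99, 1.92 and 2.24 against 1.63, 1.76 and 1.74, which was likewise higher in every high-NFMP steer, by 1.20-fold. Both had a p of 0.1 by the exact permutation test (two-sided, n = 3 per group), the smallest value that 3 against 3 steers allow, and 0.2 after adjustment over the 4 ratios. When each of the 15039 tested genes was divided by CAST in the same way, 10.6% were higher in every high-NFMP steer.

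The ratios of the catalytic subunits overlapped between the groups. CAPN1 to CAST was 0.0347, 0.0613 and 0.0329 against 0.0322, 0.0363 and 0.0292 (exact permutation p = 0.4). CAPN2 to CAST was 0.215, 0.163 and 0.302 against 0.190, 0.198 and 0.173 (exact permutation p = 0.5). The summed reads of CAPN1 and CAPN2 over CAST came to 0.269 ± 0.058 in the high-NFMP and 0.220 ± 0.016 in the low-NFMP group (SD, n = 3 each), with steer 10-9 highest at 0.334. The first number of a steer's label, whose meaning is not given, splits the steers into 3 and 3. Within the steers numbered 3 the log2 difference of the ratio was 0.02 for CAPN1, 0.15 for CAPN2, 0.23 for CAPN3 and 0.31 for CAPNS1, and within those numbered 10 it was 0.62, 0.36, 0.25 and 0.51.

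**Figure D3:**
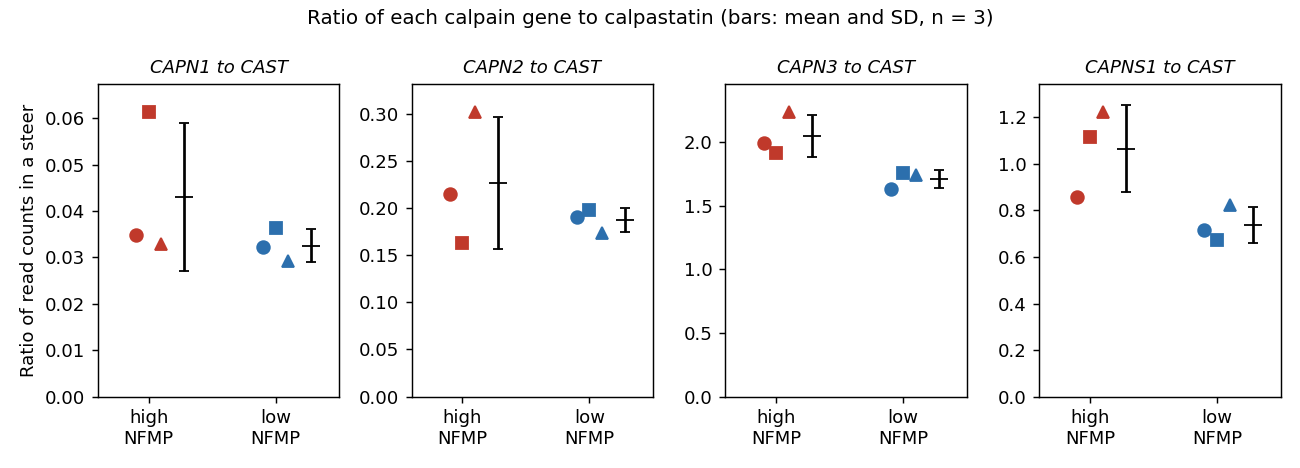
Ratio of the reads of CAPN1, CAPN2, CAPN3 and CAPNS1 to those of CAST in each steer, on axes that start at 0, with the mean and SD of each group beside the points. The groups do not overlap for CAPN3 and CAPNS1, and for CAPN1 and CAPN2 a single high-NFMP steer (10-8 and 10-9) lies far above the rest.

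The 4 tested cathepsins were all higher on average in the high-NFMP group, by log2 fold changes between 0.32 and 0.38, and none passed the test. CTSB, the most abundant, had 1672, 1770 and 2395 reads among the high-NFMP steers, against 1658, 1635 and 1645 reads among the low-NFMP steers. The low-NFMP steers lay close together, steer 3-8 was just above them (not so with no filter), and steer 10-9 stood apart. CTSB had 120.3 ± 21.2 against 94.5 ± 4.40 CPM (SD, n = 3 each), a log2 fold change of 0.35 (95% interval -0.04 to 0.74, adjusted p = 0.493 by edgeR). Without steer 10-9 it was 0.22.

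CTSD had 804, 901 and 1128 reads among the high-NFMP steers, against 895, 715 and 736 reads among the low-NFMP steers, with steer 3-1 among the high-NFMP values. Its means were 58.5 ± 9.47 and 44.9 ± 5.82 CPM (SD, n = 3 each), a log2 fold change of 0.38 (95% interval -0.03 to 0.79, adjusted p = 0.473 by edgeR). With the age of the steers as a term, its log2 fold change was 0.62, with an unadjusted p of 0.0196 and an adjusted p of 0.463 by edgeR, and that of CAPNS1 was 0.61. The log2 fold change of CTSD was 0.31 (unadjusted p = 0.144) with the label number as a term and 0.29 (unadjusted p = 0.175) without steer 10-9.

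CTSK was counted 501, 411 and 536 times against 370, 418 and 436 times, and after normalization the high-NFMP steers (27.2 to 32.0 CPM) were all higher than the low-NFMP steers (21.1 to 26.2 CPM), though not with library totals alone. Its log2 fold change was 0.35 (95% interval -0.05 to 0.75, adjusted p = 0.511 by edgeR). CTSH, at 96, 99 and 118 against 68, 100 and 102 reads, overlapped between the groups, with a log2 fold change of 0.32 (95% interval -0.27 to 0.91, adjusted p = 0.687 by edgeR), and 0.15 without the low steer 3-1. With age as a term the log2 fold change was 0.30 for CTSK and 0.18 for CTSH.

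CTSL had 8, 10 and 1 reads among the high-NFMP steers, against 11, 2 and 0 reads among the low-NFMP steers, and was removed by the filter on low counts. The 0 in steer 10-16 allows a level of up to 0.180 CPM, from counting error alone. The RefSeq gene table gives CTSL also as another name of the related cysteine protease gene CTSV, so which of these genes the row named CTSL holds is not settled. The row named CTSV, at 9.49 CPM over all 6 steers, had 138, 147 and 83 reads among the high-NFMP steers, against 181, 233 and 180 reads among the low-NFMP steers. The groups did not overlap in the CTSV row, which was lower in the high-NFMP steers with a log2 fold change of -0.56 (95% interval -1.14 to 0.01, adjusted p = 0.449 by edgeR). Whether reads were shared between these related genes was not tested.

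No tested member reached the threshold named in the methods of the study, a fold change above 2 together with an unadjusted p below 0.05, which 3.9% of the 15039 tested genes did. None had an adjusted p below 0.05 by edgeR, against 0.685% of tested genes, and 1 of the 9 (CAPNS1) had an unadjusted p below 0.05, against 11.5%. DESeq2 gave 0 members at either level. The log2 fold change was above 0 in 8 of the 9 members and in 51.9% of tested genes, with a median of 0.32 in the members and 0.02 over all tested genes. The groups did not overlap for 4 of the 9 (CAPN3, CAPNS1, CTSB and CTSK), against 17.1% of tested genes, and for 2 of the 9 (CAPNS1 and CTSB) with library totals alone. In 8 of the 9 members the 95% interval lay within a fold change of 2 in either direction, the exception being CAPN1. The spread between steers of a group, as the SD of log2 CPM, had a median of 0.21 in the members, from 0.07 in CAPN3 to 0.37 in CAPN1, and 0.30 over all tested genes.

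**Figure D4:**
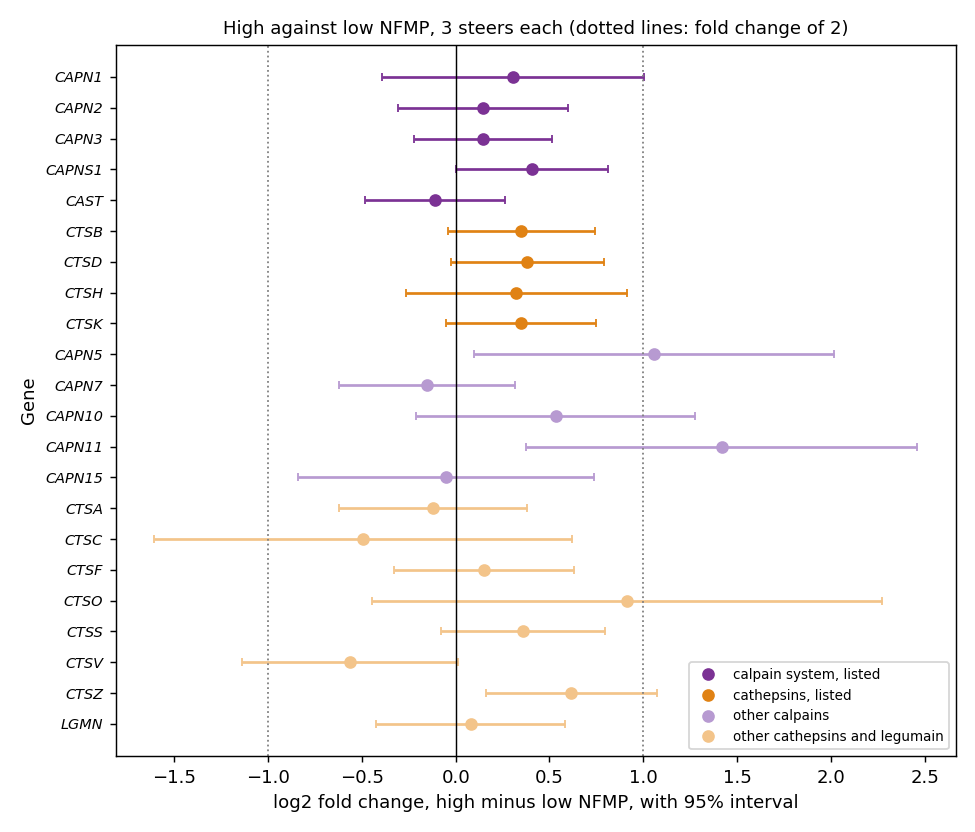
Log2 fold change of high minus low NFMP with its 95% interval for the 9 tested members and for the tested genes among the other calpains, the other cathepsins and legumain, with dotted lines at a fold change of 2. The interval of CAPNS1 touches 0 at its lower end, and CAPN5 and CAPN11 are the genes whose point lies beyond a fold change of 2.

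Of the 12 other listed genes of the calpain family, 10 were found by symbol in the deposited counts and 5 passed the filter. CAPN11 and CAPN5 were both past that threshold with higher levels at high NFMP, as were 2.53% of tested genes, and neither had an adjusted p below 0.05. Without steer 3-8, 10-8, 10-9 or 10-16, only 1 gene of this list was past it. CAPN11 had 90, 30 and 59 reads among the high-NFMP steers, against 30, 33 and 9 reads among the low-NFMP steers, with a log2 fold change of 1.42 (95% interval 0.38 to 2.46, adjusted p = 0.266 by edgeR). Steers 10-8 and 3-1 had the same 30 reads. CAPN5 was counted 32, 67 and 64 times against 34, 39 and 13 times, and the groups overlapped (log2 fold change 1.06, adjusted p = 0.389). CAPN7, named after its values were seen, was the best covered of the 5, with 34.0 CPM over all 6 steers, and had a log2 fold change of -0.15, whereas the other 4 tested genes had a lower mean CPM than CAPN1.

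Among the 8 tested genes of the other cathepsins and legumain, 5 had a log2 fold change above 0 and the median was 0.12, with none past that threshold. With a steer left out the median was 0.05 to 0.24, and without steer 3-1 the number past the threshold was 1. The 3 with the most reads were CTSC, which activates granule proteases of leukocytes (log2 fold change -0.49, adjusted p = 0.739), CTSF (0.15, adjusted p = 0.831) and CTSS, the cathepsin of antigen-presenting cells (0.36, adjusted p = 0.541, all by edgeR). CTSZ, named after its values were seen, was counted 241, 236 and 277 times against 181, 203 and 149 times. Its groups did not overlap, at 15.6 ± 1.00 against 10.1 ± 1.12 CPM (SD, n = 3 each), with a log2 fold change of 0.62 and an adjusted p of 0.267 by edgeR.

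Of the cathepsin inhibitors, cystatin C (CST3) was as abundant as CAPN3 with group means of 235.0 ± 16.1 against 232.2 ± 7.30 CPM (SD, n = 3 each). CST6 varied between steers, from 366 to 1036 reads, with a log2 fold change of -0.11. Cystatin B (CSTB), which binds cysteine cathepsins in the cytosol, had 351, 383 and 480 reads among the high-NFMP steers, against 268, 333 and 213 reads among the low-NFMP steers in its main row. The groups did not overlap, and the log2 fold change was 0.69 (95% interval 0.24 to 1.15, adjusted p = 0.201 by edgeR). A second row of the same symbol held 3 to 22 reads, and its log2 fold change was -0.68. The 7 tested rows of this list had a median of 0.02, and none of them passed that threshold. With a steer left out the median was -0.04 (without 10-9) to 0.19 (without 3-8), and without steer 10-9 the number past the threshold was 1. The list also held SERPINH1, a collagen chaperone of the endoplasmic reticulum that does not inhibit proteases (log2 fold change -0.25, adjusted p = 0.775 by edgeR).

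The lysosomal genes around the cathepsins showed no common direction: of 23 tested genes of lysosomal sorting, membrane and regulation, 12 had a log2 fold change above 0, with a median of 0.03. The lysosomal membrane proteins LAMP1 and LAMP2 were at 0.28 and -0.14. MITF, a transcription factor related to the lysosomal regulator TFEB, was at -0.49 with an adjusted p of 0.349 by edgeR, and its groups did not overlap. Of the 18 proteins listed as calpain substrates, none was past the p and fold change threshold and 14 were above 0 (51.9% of all tested genes), with a median of 0.18. Titin (TTN) was at -0.15, nebulin (NEB) at -0.18 and MYBPC1 at -0.01. FLNA, SPTAN1, VIM and AHNAK, named after their values were seen, had an unadjusted p below 0.05 by edgeR (4 of 18, against 11.5% of all tested genes) with log2 fold changes between 0.42 and 0.57 and adjusted p values of 0.296, 0.407, 0.426 and 0.416. With a steer left out, 0 to 4 substrates had such an unadjusted p, the 0 being without steer 10-16. The 9 tested caspases and their regulators had a median of -0.05, and their best covered genes BIRC2, DIABLO and XIAP were at -0.12, 0.07 and -0.41.

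Markers of other cell types were examined beside the cathepsins. All 8 adipocyte markers were higher on average in the high-NFMP group, 5 of them with an unadjusted p below 0.05 by edgeR, against 51.9% and 11.5% of all tested genes. Steer 3-8 was the highest for 7 of the 8, and without it 5 were higher on average and 1 had an unadjusted p below 0.05. The summed level was 716.7 CPM in steer 3-8, 408.4 and 306.4 CPM in the high-NFMP steers 10-8 and 10-9, and 284.0 to 355.8 CPM in the low-NFMP steers. Of the 12 macrophage markers, 9 were higher on average and AIF1 was past the p and fold change threshold, as were 3.9% of all tested genes (log2 fold change 1.04, adjusted p = 0.388), with summed levels of 62.1 to 86.0 against 42.0 to 77.1 CPM. The number past that threshold was 0 without steer 3-1 or 10-16, 2 without steer 10-8 and 4 without steer 3-3, and for the adipocyte markers it rose from 0 to at most 2, without steer 10-9. Of the 9 fibroblast markers, 7 were higher on average (3 without steer 10-8), with summed levels of 760.1 to 971.3 against 587.7 to 787.0 CPM. No marker of these lists was at 0 in any steer, and no marker had an adjusted p below 0.05. The median log2 fold change was 0.62 for the adipocyte, 0.53 for the macrophage and 0.30 for the fibroblast markers, beside 0.35 for the 4 tested cathepsins. With a steer left out it was 0.34 to 0.80, 0.31 to 0.74 and -0.09 to 0.47 for these markers. For the cathepsins it was then 0.29 to 0.46, with CTSL included where it passed the filter. The lowest values came without steer 3-8 (adipocyte), 3-1 (macrophage), 10-8 (fibroblast) and 10-9 (cathepsins). The 4 tested endothelial markers had a median of 0.18, and the slow and the fast fibre markers had medians of 0.05 and 0.08. With a steer left out, the endothelial median was 0.02 (without 3-8) to 0.51 (without 10-8, with 5 genes of its list tested). The slow fibre median was then -0.06 (without 10-8) to 0.17 and the fast fibre median 0.00 to 0.24. The part of these cells in the cathepsin values was not tested.

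**Figure D5:**
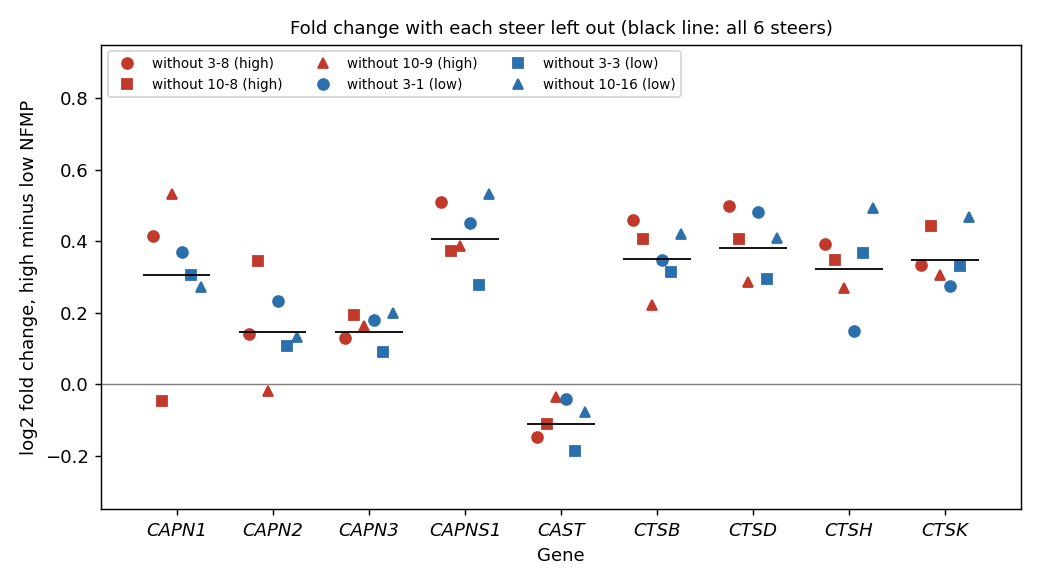
Log2 fold change of the 9 tested members with each steer left out in turn, with a black line at the value of all 6 steers. CAPN1 without steer 10-8 and CAPN2 without steer 10-9 fall just below 0, and the other 7 members keep the sign they have with all 6 steers.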

How the data were processed

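RNA was extracted with Trizol from LT muscle of 6 steers and sequenced at the 3′ end. The authors deposited raw read counts per gene symbol for each steer, without normalization, in 23015 rows. Their methods name Tophat2 with HTSeq in one place and Bowtie2, with unique and multiple alignments, in another, on the UMD3.1 build, and the submitters' processing notes name Bowtie2 and bedtools. The route behind these counts and the use of strand are not stated, so genes of similar sequence can share reads. The quantile normalization of the study is not in the deposited counts.

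In edgeR 4.0.16 (R 4.3.3), its default filter (minimum count 10, minimum total 15) kept 15039 rows, at least 99.85% of the counts of a library. TMM factors lay between 0.915 and 1.083. The quasi-likelihood test (robust dispersions) compared high with low NFMP, with Benjamini-Hochberg adjustment over all tested rows, and 95% intervals came from the fitted standard error. The procedure was tested on simulated counts. Ratios were tested by exact permutation over steers. The counting error of a gene and the level that a count of 0 allows cover counting error only, and the reads carry no molecular identifiers.

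The members and lists were chosen with earlier results of these data known. Genes named from a list are those past the p and fold change threshold or, where there was none, the 3 with the most counts. Other names, given as such, were chosen after their values were seen. Named outside these rules are CTSV, for the name it shares with CTSL, and SERPINB6 and SERPINH1, serpins of the inhibitor list. Marker genes are named only where past the threshold. Alternatives were RLE factors, library totals, no filter on counts, a minimum of 10 counts in every library, DESeq2 1.42.0, quantile normalization of log2(count + 1) with limma 3.58.1, the first label number or the age as a term, repeated symbols summed, and each steer left out. CTSL and CTSV were also summed, an alternative chosen after seeing the data. Gene names came from the RefSeq table of ARS-UCD2.0, which holds all 10 members. As its build is not that of the study, no coordinates are given, and no sequences are printed.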

Additional observations from a re-analysis of the deposited data

How the results depend on the processing

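No member was past the p and fold change threshold under any alternative run, including each steer left out, and the lowest adjusted p of a member in these fits lay between 0.248 and 0.712 (edgeR, DESeq2 or limma). The number of members at an unadjusted p below 0.05, 1 with all 6 steers (CAPNS1), was 0 with no filter, RLE factors, library totals, DESeq2 or the label number as a term, 2 (CAPNS1 and CTSD) with quantile normalization and limma or with age as a term, and 0 to 3 with a steer left out. It was 3 without steer 3-8 (CAPNS1, CTSB and CTSD) and 0 without 10-8, 10-9, 3-1 or 3-3. The 4 members whose groups did not overlap became 2 with no filter (CAPN3 and CTSK), 2 with library totals (CAPNS1 and CTSB), 3 with RLE factors or DESeq2 (without CAPNS1), 3 with quantile normalization (without CAPN3) and 4 to 6 with a steer left out. The sign turned only for CAPN1 (-0.048 to 0.53 with a steer left out) and CAPN2 (-0.019 to 0.34). CTSL, tested with no filter, had a log2 fold change of 0.65 (adjusted p = 0.847 by edgeR), and -0.52 when summed with CTSV (adjusted p = 0.493). The log2 difference of CAPNS1 to CAST stayed above 0 throughout, at 0.31 within the steers numbered 3. With a steer left out it was 0.41 to 0.67, that of CAPN3 0.19 to 0.30, of CAPN1 0.06 to 0.51 and of CAPN2 0.00 to 0.45. Over all genes, 586 passed that threshold, 969 with no filter, 364 with at least 10 counts in every library and 630 to 744 with a steer left out. At an adjusted p below 0.05 there were 103, against 240 with no filter, 291 with DESeq2, 31 with age as a term and 28 to 82 with a steer left out. The cause of these shifts was not tested. No paired analysis was possible because the labels give the steers no shared replicate numbers. Division by coding length was not run, since no coding lengths were used here. The depth limits CAPN1, CTSH and CTSL most.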

Other observations

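Of the 5 serpin genes on the list with the cathepsin inhibitors, the 3 SERPINA3 genes, named after their values were seen, were counted mainly in steer 10-9, the steer with the highest level of the 4 tested cathepsins. SERPINA3 had 6, 4 and 69 reads among the high-NFMP steers (3-8, 10-8 and 10-9), against 6, 1 and 6 reads among the low-NFMP steers (3-1, 3-3 and 10-16). SERPINA3-1 had 30 reads in steer 10-9, 5 in steer 10-16 and 0 in the other 4, and SERPINA3-3 had 12 reads in steer 10-9 and 0 elsewhere. All 3 were removed by the filter, so they were not tested. They are closely related and can share reads. The other 2, SERPINB6 (283 to 341 reads) and the collagen chaperone SERPINH1 (109 to 232 reads), were counted in all 6 steers, with the highest level in steer 10-8 and in steer 3-1.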
